A study of Mus musculus with 16 samples.

Results

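The 10 genes described here belong to the ATF4 stress response and to the synthesis of serine that it governs. They were found by symbol among the 14538 genes of the deposited table, where all 10 have a row, and all 10 passed the minimum of 10 normalized counts on average, which left 11841 genes to test. Atf4, Atf5 and Ddit3 encode transcription factors, Chac1, Trib3 and Sesn2 encode stress outputs, and Asns, Psat1, Phgdh and Mthfd2 encode amino acid and one-carbon enzymes. The list was chosen by its pathway around Chac1, itself selected on its difference in normalized counts between GDF15-treated and pair-fed mice. The values of Chac1, and those of all 10 genes in that comparison, are therefore a description without a p-value.

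RNA came from the tibialis anterior, a shin muscle made largely of fast fibres, of wild-type male mice labelled C57BL/6 (C57BL/6J in the study's methods). All mice had eaten a NASH diet, high in fat and fructose with some cholesterol, at thermoneutral housing of about 29 °C from 8 weeks of age, and were housed singly from their assignment to treatment groups. There were 5 mice given vehicle, 6 given recombinant GDF15 by a daily subcutaneous injection, and 5 pair-fed mice held each day to the previous day's intake of the GDF15 group, with 1 library per mouse. The labels name doses of 0.3, 1 and 5 nmol/kg without saying which of them these mice received, and they do not give the age at collection.

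When amino acids run short or unfolded protein builds up in the endoplasmic reticulum, kinases phosphorylate the translation factor eIF2α, most protein synthesis slows, and the mRNA of Atf4 is translated more. The ATF4 protein then binds genes for amino acid transport, amino acid synthesis and tRNA charging, and drives Atf5, Ddit3, Trib3 and Chac1. Since ATF4 is controlled largely at translation, its mRNA need not follow its activity. In skeletal muscle the response is known from fasting, disuse and mitochondrial disease, where serine and one-carbon enzymes are among its best known targets.

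The composite element through which ATF4 and C/EBP partners act, written here as TGATGNAA and searched on both strands, marks which of the 10 genes carry a match next to their start. In RefSeq promoter windows of GRCm38.p6, from 250 bases before to 50 after a start, it was found in 3 of the 12 windows of the 10 genes, belonging to Chac1, Asns and Trib3, and in 3.97% of 32851 windows of all genes. The cAMP response element TGACGTCA was in 0 of the 12 windows and in 1.79% of all of them. The stretches that hold the 3 matches are shown 5′ to 3′ on the strand of the gene, with the match in capitals. They come from chr2:119350992-119351151 on the plus strand for Chac1, chr6:7693214-7693243 on the minus strand for Asns and chr2:152344028-152344057 on the minus strand for Trib3.
Chac1: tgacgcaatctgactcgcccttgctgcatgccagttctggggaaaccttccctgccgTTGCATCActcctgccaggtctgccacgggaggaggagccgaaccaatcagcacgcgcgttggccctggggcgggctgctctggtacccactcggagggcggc
Asns: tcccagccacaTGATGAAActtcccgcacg
Trib3: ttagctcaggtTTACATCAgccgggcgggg
The match of Chac1 begins 193 bases before the start, that of Asns 23 bases before it, and that of Trib3 14 bases after it. In Chac1 and Trib3 the capitals read as the reverse complement of the motif. A match is a run of letters and was not tested as a binding site.

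Across the 10 genes, Chac1, whose values chose it, had the largest fitted change in each comparison. None of the other 9 passed both thresholds in any comparison. In the plot of counts by mouse, Chac1 was lowest with GDF15 and highest with pair-feeding, Atf5 showed a smaller difference of the opposite sign, and the mRNA of Atf4 itself was nearly level. GDF15-treated against pair-fed mice gave 1 of the 10 genes past both thresholds (limma over all tested genes, adjusted p under 0.1 and a change of more than 0.6 on the log2 scale), against 0.279% of all genes. That comparison guided the choice of the genes, so nothing is read from its count. GDF15-treated against vehicle-treated mice gave 0 of 10, with a background of 0.304%. Pair-fed against vehicle-treated mice gave 1 of 10, with a background of 0.819%. That gene was again Chac1, whose pair-fed values helped to choose it, so nothing is read from this count either, and it was 0 when pair-fed mouse 5 was left out. Of the 9 genes other than Chac1, limma gave an unadjusted p under 0.05 for Phgdh in GDF15 against vehicle, where 11% of all genes passed, and for Atf5, Phgdh and Sesn2 in pair-fed against vehicle, where 18.9% did. The median log2 fold change of the 10 genes was 0.03, 0.07 and 0.04 in the 3 comparisons in that order, and that of all tested genes was 0.00 in each. The 3 comparisons share their groups of mice, and those with vehicle share mice with the comparison that guided the choice.

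**Figure D1:**
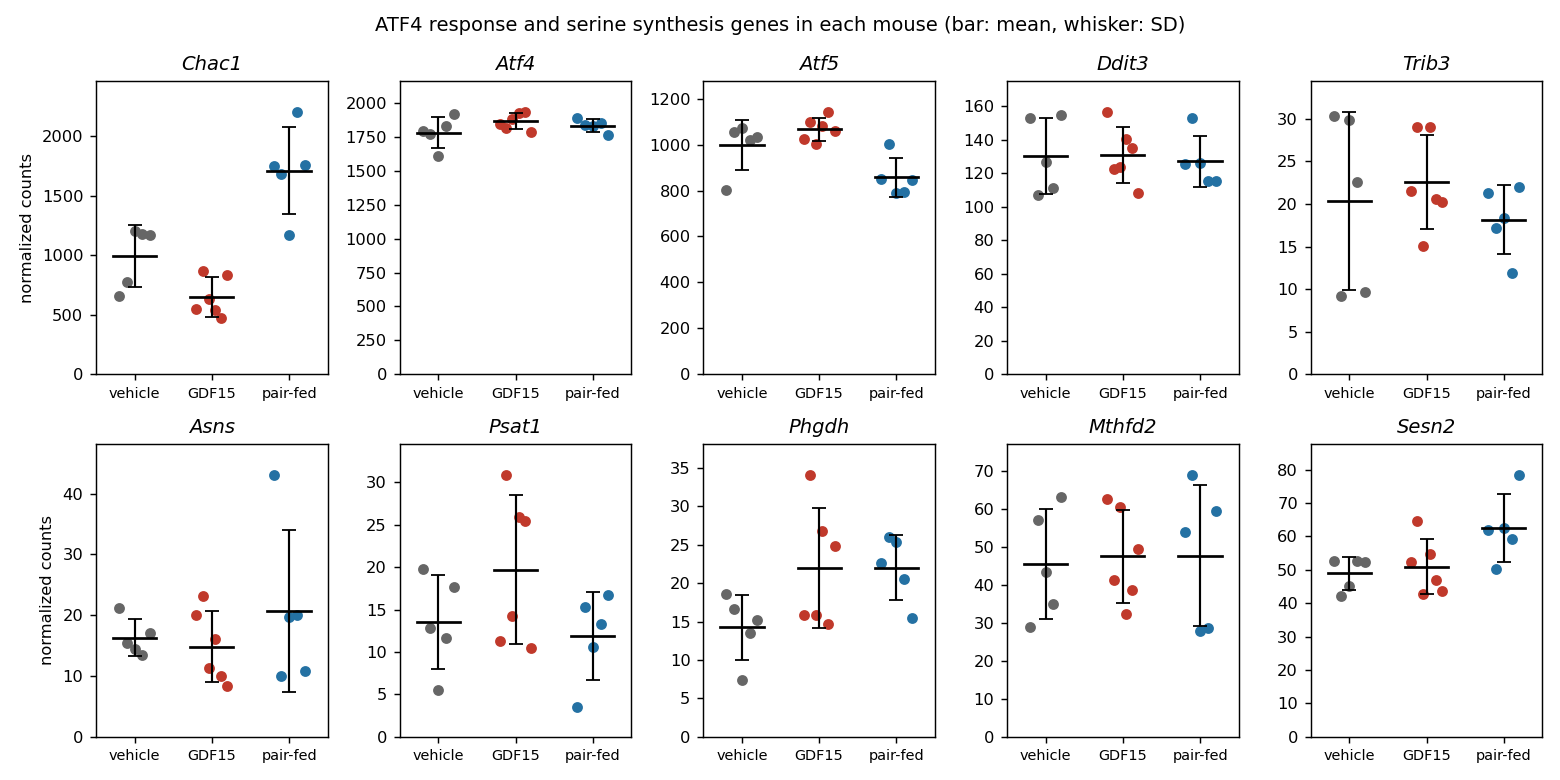
Normalized counts of the 10 genes in each mouse (points), by group, with the group mean (bar) and SD (whisker) on linear axes that start at 0. Chac1 in the 6 GDF15-treated mice lay between 473.6 and 867.9 and in the 5 pair-fed mice between 1168.5 and 2202.0, while Atf4 stayed between 1608.7 and 1931.5 in all 16 mice.

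Chac1 (chromosome 2, 119351242 to 119354326 in GRCm38.p6) encodes a cytosolic enzyme that cleaves glutathione at its γ-glutamyl bond. Its normalized counts were 653.2, 774.1, 1200.3, 1182.7 and 1172.7 in vehicle-treated mice 1 to 5. In GDF15-treated mice 1 to 6 they were 548.4, 867.9, 630.0, 537.0, 473.6 and 833.6. In pair-fed mice 2 to 6 they were 1753.5, 1682.1, 1168.5, 2202.0 and 1759.5. Every GDF15-treated mouse thus lay below every pair-fed mouse, a separation in that direction that 1.06% of all tested genes showed. The vehicle-treated mice spanned the gap, with mice 1 and 2 inside the range of the GDF15 group and the other 3 close to the lowest pair-fed mouse. The log2 fold change of GDF15 against pair-fed was -1.41 (SE 0.19, 95% interval -1.81 to -1.01), a level 0.377 times that of pair-fed mice. Leaving out each mouse in turn kept it between -1.54 and -1.31.

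Vehicle-treated mice lay between the other groups in mean Chac1 level, at 997 ± 262 normalized counts (SD, n = 5). Pair-fed mice had a log2 fold change of 0.80 (SE 0.20, 95% interval 0.38 to 1.22) against vehicle, 1.74 times the vehicle level. Their ranges met only in pair-fed mouse 4, whose 1168.5 normalized counts lay below the 1200.3 of vehicle-treated mouse 3. GDF15-treated mice had a log2 fold change of -0.61 (SE 0.19, 95% interval -1.01 to -0.21) against vehicle. Without pair-fed mouse 5, the value of pair-fed against vehicle was 0.70 (SE 0.21).

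Atf4 (chromosome 15, 80255184 to 80257545) encodes the basic leucine zipper factor at the head of the response. Its normalized counts were 1792.5, 1770.0, 1608.7, 1827.9 and 1917.3 with vehicle, 1849.8, 1817.1, 1885.7, 1929.0, 1931.5 and 1789.9 with GDF15, and 1889.5, 1837.8, 1827.8, 1855.3 and 1763.1 with pair-feeding. The 3 groups overlapped throughout, and the coefficient of variation within a group was 6.31%, 3.13% and 2.53%. In log2 fold change, the difference was 0.07 (95% interval -0.02 to 0.16, limma adjusted p = 0.583) in GDF15 against vehicle and 0.04 (95% interval -0.05 to 0.13, limma adjusted p = 0.650) in pair-fed against vehicle. In GDF15 against pair-fed it was 0.03 (95% interval -0.06 to 0.11). Every interval thus ended within a change of 0.16 on the log2 scale, for the mRNA and not for the protein.

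Atf5 (chromosome 7, 44812256 to 44816658), a related factor that ATF4 is known to induce, had its lowest values in the pair-fed mice. Normalized counts were 852.5, 1003.6, 790.8, 795.6 and 844.8 with pair-feeding and 1026.2, 1100.6, 1003.3, 1080.0, 1140.8 and 1057.9 with GDF15. With vehicle they were 804.7, 1056.5, 1073.3, 1020.4 and 1034.6. GDF15-treated and pair-fed mice met only where pair-fed mouse 3, at 1003.6, was level with GDF15-treated mouse 3 at 1003.3. Among vehicle-treated mice, mouse 1 lay within the pair-fed range and the other 4 lay above it. The log2 fold change of GDF15 against pair-fed was 0.32 (SE 0.07, 95% interval 0.17 to 0.47), opposite in sign to that of Chac1 and under the size threshold. Against vehicle, pair-fed mice had -0.22 (SE 0.08, 95% interval -0.38 to -0.06, limma adjusted p = 0.129) and GDF15-treated mice 0.10 (SE 0.07, 95% interval -0.05 to 0.26, limma adjusted p = 0.649). Without vehicle-treated mouse 1 the former was -0.29 (limma adjusted p = 0.0224) and without pair-fed mouse 3 it was -0.27 (limma adjusted p = 0.0363). Exons of Atf5 overlap those of Il4i1 and Nup62 on the opposite strand, and the strand setting of the counting is not given in the sources used here, so reads of these genes may not be told apart.

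Ddit3 (chromosome 10, 127290793 to 127296291) encodes CHOP, a factor linked to cell death under prolonged stress. Its normalized counts lay between 107.0 and 154.9 with vehicle, 108.0 and 156.2 with GDF15, and 115.1 and 152.7 with pair-feeding, so that the ranges largely coincided. Fitted log2 fold changes were 0.01 (95% interval -0.24 to 0.27, limma adjusted p = 0.984) in GDF15 against vehicle, -0.03 (95% interval -0.29 to 0.23, limma adjusted p = 0.933) in pair-fed against vehicle and 0.04 (95% interval -0.21 to 0.29) in GDF15 against pair-fed. Its exons overlap Mars and Gm4189 on the opposite strand, with the same limit as for Atf5.

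The other 2 outputs were at low counts. Trib3 (chromosome 2, 152337425 to 152344060), a pseudokinase that restrains ATF4 and insulin signalling, had 30.31, 9.23, 29.93, 22.59 and 9.67 normalized counts with vehicle. It had 21.47, 29.06, 15.06, 29.01, 20.60 and 20.23 with GDF15 and 21.32, 17.18, 18.37, 11.91 and 22.01 with pair-feeding. Vehicle-treated mice alone covered the whole range of the other groups. Fitted log2 fold changes were 0.28 (95% interval -0.37 to 0.92, limma adjusted p = 0.807) in GDF15 against vehicle, -0.02 (95% interval -0.69 to 0.65, limma adjusted p = 0.984) in pair-fed against vehicle and 0.29 (95% interval -0.35 to 0.94) in GDF15 against pair-fed.

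Sesn2 (chromosome 4, 132492804 to 132510456), which encodes a leucine sensor that restrains mTORC1, had normalized counts of 61.8, 50.2, 62.7, 59.4 and 78.4 with pair-feeding. With vehicle they were 52.5, 42.2, 45.3, 52.8 and 52.2, and with GDF15 52.4, 64.7, 42.6, 54.8, 47.0 and 43.8. Of the pair-fed mice 4 lay above all vehicle-treated mice. The log2 fold change was 0.34 (SE 0.14, 95% interval 0.03 to 0.64) in pair-fed against vehicle, which did not pass the correction (limma adjusted p = 0.214). It was 0.05 (95% interval -0.25 to 0.34, limma adjusted p = 0.945) in GDF15 against vehicle and -0.29 (95% interval -0.58 to -0.001) in GDF15 against pair-fed. Sesn2 leaned the same way as Chac1 in the latter comparison, at a smaller size.

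**Figure D2:**
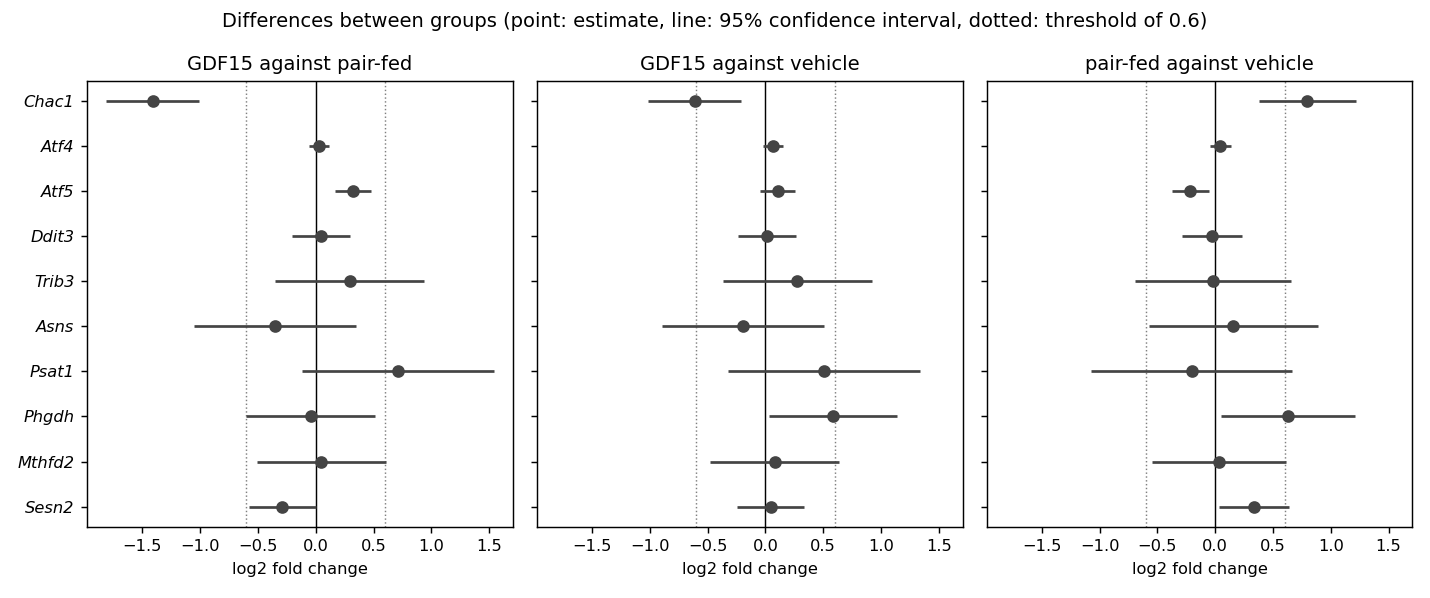
Log2 fold change of each of the 10 genes in the 3 comparisons (point, limma estimate on log2(normalized count + 1)) with its 95% confidence interval (line). Dotted lines mark the size threshold of 0.6. Chac1, whose values chose it, has the lowest point in GDF15 against pair-fed, at -1.41, and the intervals of Atf4 are the narrowest in each panel.

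The 4 enzymes were weakly expressed in this muscle and none passed the thresholds. Phgdh (chromosome 3, 98313171 to 98339969) encodes the enzyme of the first step of serine synthesis. Its normalized counts were 18.58, 16.62, 7.36, 13.58 and 15.15 with vehicle, 15.88, 34.07, 15.88, 26.86, 14.68 and 24.80 with GDF15, and 22.58, 26.03, 25.36, 20.52 and 15.51 with pair-feeding. The mean was 14.26 ± 4.27 with vehicle (SD, n = 5) and 22.03 ± 7.82 with GDF15 (SD, n = 6), and 4 of the 5 pair-fed mice lay above all vehicle-treated mice. The log2 fold change was 0.63 (SE 0.28, 95% interval 0.05 to 1.21, limma adjusted p = 0.226) in pair-fed against vehicle and 0.58 (SE 0.26, 95% interval 0.03 to 1.14, limma adjusted p = 0.417) in GDF15 against vehicle, neither of which passed the correction. In GDF15 against pair-fed the value was -0.04 (95% interval -0.60 to 0.51).

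Psat1 (chromosome 19, 15905123 to 15925059) encodes the next enzyme of the pathway, the aminotransferase that makes phosphoserine. It had 19.77, 12.85, 5.53, 11.69 and 17.60 normalized counts with vehicle, 11.24, 30.84, 14.21, 25.93, 25.45 and 10.48 with GDF15, and 3.53, 15.3004, 10.63, 13.29 and 16.73 with pair-feeding. GDF15-treated mice 2, 4 and 5 lay above all mice of the other groups and the other 3 lay among them. Its log2 fold change was 0.50 (95% interval -0.33 to 1.33, limma adjusted p = 0.696) in GDF15 against vehicle, -0.21 (95% interval -1.07 to 0.66, limma adjusted p = 0.846) in pair-fed against vehicle and 0.71 (95% interval -0.12 to 1.54) in GDF15 against pair-fed.

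Mthfd2 (chromosome 6, 83305704 to 83326011), a mitochondrial enzyme of folate metabolism downstream of serine, ranged from 29.0 to 63.3 normalized counts with vehicle, 32.5 to 62.8 with GDF15 and 27.8 to 69.0 with pair-feeding. These ranges overlapped throughout. Its log2 fold change was 0.08 (95% interval -0.48 to 0.64, limma adjusted p = 0.951) in GDF15 against vehicle, 0.03 (95% interval -0.55 to 0.61, limma adjusted p = 0.969) in pair-fed against vehicle and 0.05 (95% interval -0.51 to 0.61) in GDF15 against pair-fed.

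Asns (chromosome 6, 7675165 to 7693209), which makes asparagine and is a classical target of ATF4, had 21.18, 15.36, 14.47, 13.38 and 17.11 normalized counts with vehicle. It had 20.00, 23.08, 11.31, 16.12, 10.05 and 8.40 with GDF15 and 43.03, 10.07, 19.72, 20.08 and 10.87 with pair-feeding. Pair-fed mouse 2 was the highest of all 16 mice. Its log2 fold change was -0.20 (95% interval -0.90 to 0.50, limma adjusted p = 0.887) in GDF15 against vehicle, 0.16 (95% interval -0.57 to 0.89, limma adjusted p = 0.861) in pair-fed against vehicle and -0.35 (95% interval -1.05 to 0.35) in GDF15 against pair-fed. Without pair-fed mouse 2 the value of pair-fed against vehicle changed sign, to -0.14. For these enzymes the intervals run beyond 0.5 on the log2 scale, so changes of that size could not be told from none at these counts.

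Among the 4 most abundant genes, the order of the levels per kilobase of transcript differed between groups in the place of Chac1. With vehicle, Atf4 had 1034 ± 65.3 normalized counts per kilobase (SD, n = 5), Chac1 609 ± 160, Atf5 550 ± 60.5 and Ddit3 147 ± 25.4. The other 6 genes lay between 21.9 (Mthfd2) and 5.15 (Psat1). Chac1 and Atf5 overlapped within their SD, as did each neighbouring pair from Mthfd2 down to Psat1. With pair-feeding Chac1 reached 1047 ± 225 (SD, n = 5) beside 1064 ± 26.9 for Atf4, which overlapped, and with GDF15 it lay at 396 ± 101 (SD, n = 6), below the 588 ± 27.6 of Atf5. Among the 6 rarer genes, Trib3, Asns, Phgdh and Psat1 also changed places between groups. In every group the 4 enzymes, Trib3 and Sesn2 lay below Ddit3 on this scale.

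The spread between mice was set against that of counting reads. At the approximate depth of these libraries, the SD of Chac1 between mice of a group was 8.21 times the SD expected from counting reads. The ratio was 2.65 for Atf5, 2.21 for Mthfd2 and 2.03 for Asns. It was 1.10 for Sesn2 and 1.32 for Phgdh, whose spread was close to that of counting. The spread expected from counting alone was 3.02% of the mean for Chac1, 2.35% for Atf4 and 25.8% for Psat1.

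**Figure D3:**
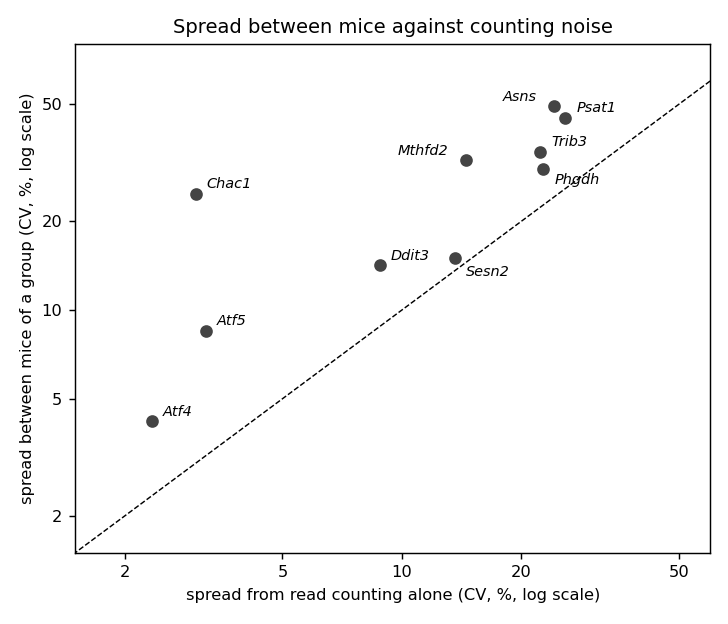
Coefficient of variation between mice of a group (vertical, log scale) against that expected from read counting alone (horizontal, log scale), both in percent, for the 10 genes. On the dashed line the 2 are equal. Chac1, at 24.8% against 3.02%, lies farthest above it and Sesn2, at 15.01% against 13.7%, closest to it.

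Inside groups the 10 genes did not vary together to a degree that this number of mice could show. After each group's mean was subtracted from log2(normalized count + 1), the 45 pairs of genes had a Pearson r between -0.43 and 0.50 over 16 mice, with a median of -0.03, and 22 pairs were positive. In a permutation test of mice within groups with 100000 resamples, two-sided, 0 of the 45 pairs had an adjusted p under 0.05 by Pearson's r or by Spearman's rho. Unadjusted, 0 pairs by Pearson and 1 pair by Spearman were under 0.05. That pair was Trib3 and Sesn2, with r = 0.44 (permutation p = 0.0572, adjusted 0.839) and rho = 0.58 (permutation p = 0.0246, adjusted 0.837). Without the 2 mice farthest from the median of Trib3 its r was 0.52. Chac1 had an r of -0.24 with Atf4, 0.33 with Atf5, -0.37 with Ddit3, -0.07 with Asns and -0.06 with Trib3.

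Around the 10 genes stand 88 others in 11 lists, of which 82 were tested. They take in the eIF2α arm, partner factors and further outputs of the ATF4 response, and also paralogues of the 10 genes, glutathione synthesis, other arms of endoplasmic reticulum stress and mitochondrial chaperones and proteases. In GDF15 against pair-fed 0 of the 82 passed both thresholds (0.279% of all genes did), in GDF15 against vehicle 2 did (0.304% of all genes), and in pair-fed against vehicle 1 did (0.819% of all genes). Both of the latter counts include Mthfd1l, which was tested only through the groups where it was high, and without it they are 1 and 0. It is also in the next counts for these 2 comparisons. At the adjusted p alone, 4 of 82 passed in GDF15 against pair-fed (2.17% of all genes did), 3 of 82 in GDF15 against vehicle (0.769% of all genes) and 13 of 82 in pair-fed against vehicle (6.37% of all genes), of which 10 were higher and 3 lower. Without Mthfd1l these are 2 and 12, the latter with 9 higher. Their median log2 fold change was -0.01, 0.03 and 0.06 in the same order, beside 0.00 for all genes.

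Of the serine and one-carbon genes, Mthfd1l and Aldh1l1 are described first. Mthfd1l, which encodes the mitochondrial enzyme that releases formate, had 3.1, 8.3, 3.0, 6.7 and 4.7 normalized counts with vehicle. It had 13.8, 10.5, 11.4, 13.7, 19.0 and 21.2 with GDF15 and 16.5, 17.5, 13.0, 17.2 and 16.3 with pair-feeding. All mice that ate less lay above all vehicle-treated mice. Groups did not overlap, in either direction, in 644 of all 11841 tested genes in pair-fed and in 195 in GDF15 against vehicle. The log2 fold change was 1.54 (SE 0.28) in pair-fed and 1.41 in GDF15 against vehicle, from a few reads per library. Its mean with vehicle, 5.16, lay under the minimum of 10, so the gene was tested only through the groups where it was high, and its values and calls are given as a description without a p-value.
Aldh1l1, a cytosolic enzyme that oxidizes formyl-tetrahydrofolate, had 85.2 ± 14.2 normalized counts with vehicle (SD, n = 5) and 132 ± 30.6 with GDF15 (SD, n = 6). Its log2 fold change of 0.62 (limma adjusted p = 0.0889) lost its call under most alternatives, among them each fit that left out a vehicle-treated mouse, with the lowest value, 0.50, without mouse 1. Psph and Shmt2, the last enzyme of serine synthesis and the mitochondrial enzyme that splits serine to glycine, had log2 fold changes between -0.01 and 0.07 in the 3 comparisons. Of the 10 genes of this list, 8 were higher in pair-fed than in vehicle-treated mice, as were 5948 of all 11841, and apart from Mthfd1l 0 of them passed the adjusted p there.

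Among the partner factors, Cebpb and Cebpg moved in opposite directions with pair-feeding. Cebpg had 870 ± 28.5 normalized counts with vehicle (SD, n = 5) and 683 ± 58.0 with pair-feeding (SD, n = 5), without overlap, a log2 fold change of -0.35 (SE 0.07, limma adjusted p = 0.00829). Pair-fed and vehicle-treated mice did not overlap, in either direction, in 644 of all 11841 tested genes. Cebpb, which encodes another C/EBP partner of ATF4, rose from 420 ± 49.7 to 574 ± 72.0 normalized counts, a log2 fold change of 0.45 (SE 0.10, limma adjusted p = 0.0249). Atf3, Jdp2 and Nupr1 did not pass, and the log2 fold change of Atf3 in GDF15 against pair-fed was 1.11 (SE 0.46, limma adjusted p = 0.301).

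Of 14 genes for tRNA synthetases and tRNA export, 12 were higher in pair-fed than in vehicle-treated mice, beside 5948 of all 11841. The adjusted p was passed by 4 of the 14 (Eprs, Nars, Vars and Yars), beside 6.37% of all genes, with log2 fold changes of 0.13, 0.16, 0.17 and 0.30. That of Eprs had a limma adjusted p of 0.0368, and of 0.105 with the mouse number as a block. With the block the limma adjusted p was also over the threshold for Nars (0.115), Vars (0.157) and Yars (0.117). The 4 lay under the size threshold, and Nars, Vars and Yars each lost significance in several fits that left out 1 mouse. Eif4ebp1, an inhibitor of cap-dependent translation, rose by 0.34 (SE 0.07, limma adjusted p = 0.0123), from 445 ± 26.6 to 565 ± 43.1 normalized counts. Vldlr, a lipoprotein receptor, had 0.25 (SE 0.08, limma adjusted p = 0.0867), which was lost in most fits that left out a vehicle-treated or pair-fed mouse. Slc38a2, the amino acid transporter SNAT2, fell by 0.53 on the log2 scale (SE 0.11, limma adjusted p = 0.016), from 2023 ± 286 to 1403 ± 193 normalized counts, and was the only 1 of 6 tested transporters past the test in that comparison. Without vehicle-treated mouse 3 its change was -0.60. Slc38a2 and Cebpg were also higher in GDF15-treated than in pair-fed mice, by 0.39 and 0.23 on the log2 scale (limma adjusted p = 0.0922 and 0.0877), and both lost significance under most alternatives.

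Of 7 genes for the eIF2α kinases, eIF2α and its phosphatase subunits, 0 passed the adjusted p in any comparison, and 3 had an unadjusted p under 0.05 in pair-fed against vehicle (18.9% of all genes did), 0 in the other comparisons. Ppp1r15b had the smallest p of them in pair-fed against vehicle, with a log2 fold change of 0.24 (SE 0.08, limma adjusted p = 0.126). Of 12 genes of the other arms of endoplasmic reticulum stress, 3 passed the adjusted p in pair-fed against vehicle, beside 6.37% of all genes. Herpud1, a component of degradation at the endoplasmic reticulum, rose by 0.26 (SE 0.05, limma adjusted p = 0.00473) without overlap between the groups. In that comparison the groups did not overlap, in either direction, in 644 of all 11841 tested genes. Dnajb9, a co-chaperone, also rose by 0.26, while Hsp90b1, the chaperone GRP94, fell by 0.18 on the log2 scale. The fall of Hsp90b1 missed the threshold without pair-fed mouse 2 (limma adjusted p = 0.102) and with the mouse number as a block (limma adjusted p = 0.108). The log2 fold changes of Hspa5, the chaperone BiP, lay between -0.08 and 0.10. Of 7 mitochondrial chaperone and protease genes and 5 genes of glutathione synthesis and the γ-glutamyl cycle, 0 passed the adjusted p in any comparison. In pair-fed against vehicle 3 of the former and 0 of the latter had an unadjusted p under 0.05, beside 18.9% of all genes, with Hspd1 at -0.19 (limma adjusted p = 0.104) and Gclm at 0.19 (limma adjusted p = 0.530). Of 6 other amino acid enzymes 0 passed the adjusted p and 2 were under 0.05 unadjusted in that comparison, beside the same 18.9%, with Got1 at -0.25 (limma adjusted p = 0.129). Under some alternatives the leading genes of these lists did pass: Hspd1 under 6 of the 27 (limma adjusted p = 0.0565 to 0.0900), Got1 under 3 (limma adjusted p = 0.0618 to 0.0761) and Ppp1r15b under 3 (limma adjusted p = 0.0705 to 0.0905), with the lowest p of Hspd1 and Got1 reached without pair-fed mouse 3.

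Relatives of the 10 genes are set beside them here. Chac2, the paralogue of Chac1, had log2 fold changes between -0.12 and 0.13 in the 3 comparisons, and 0 of them passed. Trib2, a relative of Trib3, had 258 ± 27.8 normalized counts with GDF15 (SD, n = 6), 355 ± 42.1 with vehicle and 349 ± 29.2 with pair-feeding (SD, n = 5 each). It fell by 0.44 on the log2 scale in GDF15 against pair-fed (SE 0.09, limma adjusted p = 0.0322) and by 0.46 against vehicle (limma adjusted p = 0.0319). All GDF15-treated mice lay below all vehicle-treated and all pair-fed mice. Groups did not overlap, in either direction, in 210 of all 11841 tested genes in GDF15 against pair-fed and in 195 in GDF15 against vehicle. The adjusted p of Trib2 in limma was 0.101 without pair-fed mouse 5 in the former comparison and 0.101 without vehicle-treated mouse 5 in the latter. Sesn1, a relative of Sesn2, fell by 0.36 in GDF15 against pair-fed (SE 0.08, limma adjusted p = 0.0486) and had 0.20 (limma adjusted p = 0.216) in pair-fed against vehicle. Its difference between GDF15-treated and pair-fed mice lost significance without GDF15-treated mouse 4, pair-fed mouse 5 or pair-fed mouse 6, with a limma adjusted p of 0.117 to 0.130.

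**Figure D4:**
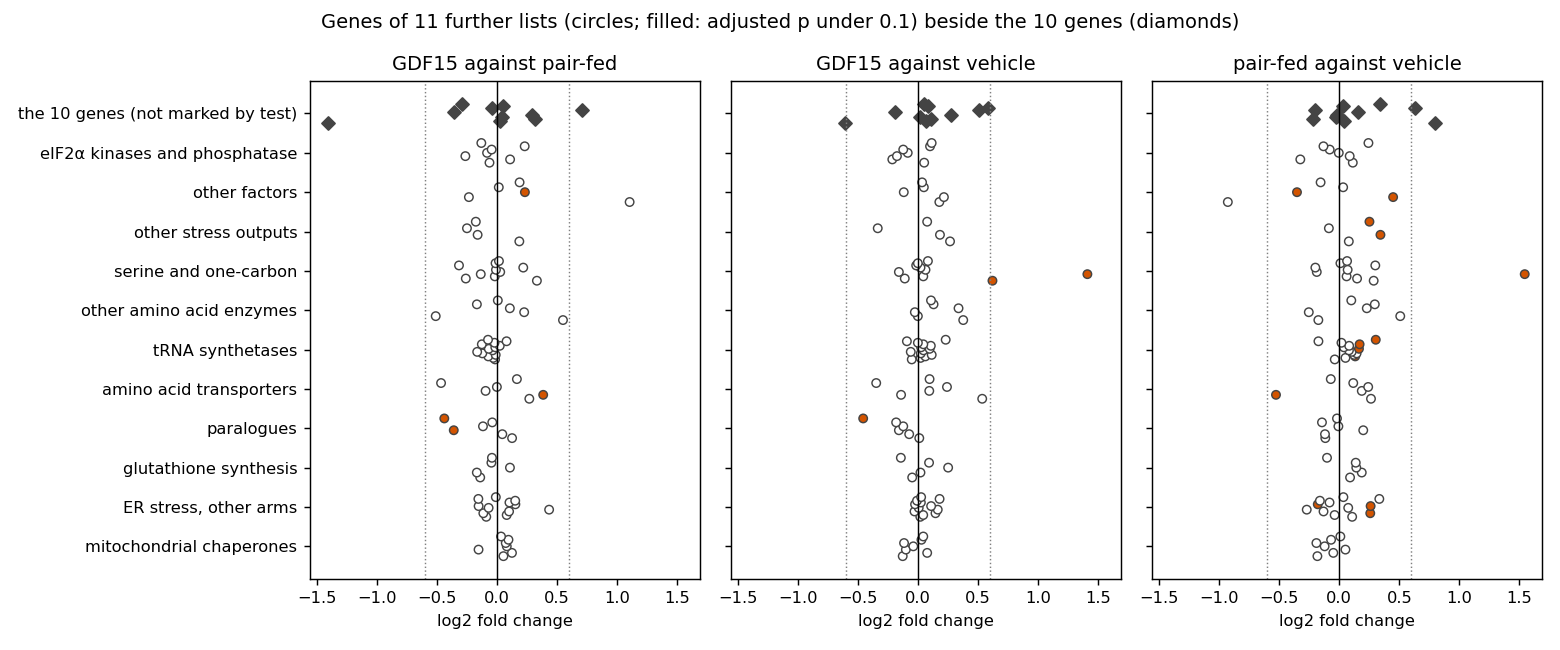
Log2 fold change of 82 further genes in 11 lists (circles, filled where the limma adjusted p was under 0.1) and of the 10 genes (diamonds, not marked by test), with dotted lines at the size threshold of 0.6. Filled circles beyond the lines are Mthfd1l at 1.41 and 1.54, tested only through the groups where it was high, and Aldh1l1 at 0.62. Apart from Mthfd1l, 12 circles are filled in pair-fed against vehicle.

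None of the 10 genes whose level was most like that of Chac1 over the 16 mice was on these lists. On log2(normalized count + 1), the highest Pearson r among the 11841 tested genes was that of Socs2 (0.883) and Cish (0.883), both suppressors of cytokine signalling. Nrbp1 (0.862), Pfkfb3 (0.854), Irgm2 (0.850), Flvcr1 (0.841), Kansl1l (0.834), Ky (0.823), Ino80 (0.821) and Mybbp1a (0.820) came next. These r values take in the differences between groups as well as those between mice of a group, and are given as a description. Cish had 6.0 to 69.9 normalized counts with GDF15 and 307.9 to 661.7 with pair-feeding. Vehicle-treated mice 1 and 2, the lowest of their group in Chac1, were also the lowest in Cish, at 92.7 and 101.4 against 431.0 to 805.3 in the other 3. In Socs2 the same mice had 47.0 and 91.8 against 163.7 to 337.7. Both genes were picked on their r with Chac1 over these same mice, so this likeness follows in part from the choice. Vehicle-treated mice 1 and 2 were also the lowest of their group in Pfkfb3, Irgm2, Kansl1l and Ky. They were not the 2 lowest in Nrbp1, Flvcr1, Ino80 and Mybbp1a. Of the 9 genes described with Chac1, Sesn2 had the highest r with it, at 0.50, which ranked 687 among the tested genes. Atf5 had the lowest, at -0.54, ranking 11451, and Atf4 had -0.24.

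**Figure D5:**
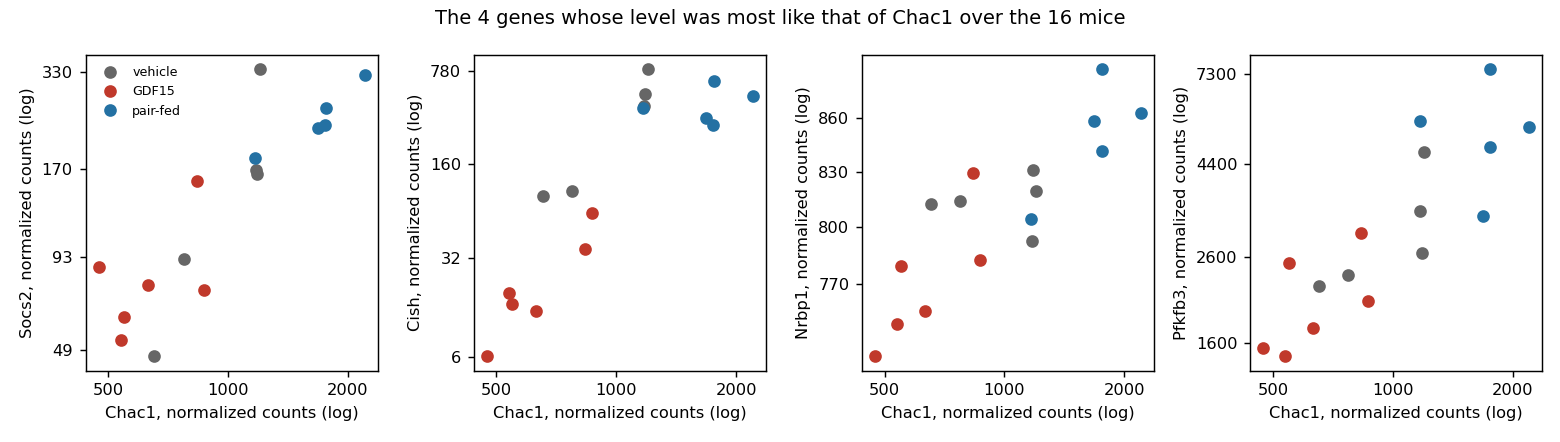
Normalized counts of Socs2, Cish, Nrbp1 and Pfkfb3 (vertical, log scale, with its own range in each panel) against those of Chac1 (horizontal, log scale) in each of the 16 mice, coloured by group. In Socs2 and Cish, vehicle-treated mice 1 and 2 lie below the other 3 of their group, while in Nrbp1 vehicle-treated mouse 5 is the lowest. The genes were picked on their r with Chac1 over these same mice, which runs from 0.854 (Pfkfb3) to 0.883 (Socs2 and Cish).

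The libraries had an approximate depth of 11900039 to 15030303 reads with vehicle, 9461533 to 13846128 with GDF15 and 11810682 to 14762777 with pair-feeding, so that the GDF15 group was somewhat shallower. The tissue label fitted its markers, with 1.88e+06 to 2.32e+06 normalized counts summed over 6 genes of fast muscle per mouse and 176 to 1715 over 4 genes of slow muscle. With vehicle, GDF15 and pair-feeding, the fast-muscle median was 2.00e+06, 2.02e+06 and 2.12e+06. The slow-muscle median was 295, 309 and 206 and the slow-muscle maximum 424, 1715 and 1565. Summed markers of other cells overlapped between the 3 groups. In the order vehicle, GDF15 and pair-feeding, sums over 5 adipocyte genes were 75.9 to 394, 46.9 to 1170 and 209 to 581. Sums over 3 erythroid genes were 260 to 3146, 838 to 2556 and 79.9 to 3743, with medians of 419, 1846 and 2009, so that the vehicle median was the lowest. Those over 4 macrophage genes were 83.9 to 182, 77.3 to 233 and 65.9 to 178, and those over 5 Schwann cell genes 879 to 1346, 1078 to 1496 and 607 to 1587. Those over 4 fibroblast genes were 2592 to 5086, 3548 to 5944 and 2616 to 5430, and those over 4 endothelial genes 4132 to 4971, 3475 to 4284 and 3642 to 4404, with medians of 4728, 3754 and 3921, the highest with vehicle. Of these markers 0 were at 0 throughout a group, and their part in the results was not tested. In a bulk sample, fewer cells of a type and less RNA per cell cannot be told apart.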

How the data were processed

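RNA of 16 muscles was sequenced, 1 library per mouse, and groups and mouse numbers came from the labels. The authors prepared directional libraries and used Trim Galore, then Salmon, then DESeq2, with mm10 named in their processing notes. Versions, annotation and strand setting are not given in the sources used here. The authors deposited log2 values from 7.32 to 19.96, of which 8459 stand at the minimum, although the table is named as normalized counts, the unit that the design had assumed. The authors' values fit the closed form of DESeq2's variance stabilization, whose inverse gave normalized counts. Low values of 1397 genes with 1 annotated transcript were then, for 82.0% to 94.4% per library, within 0.1 reads of a whole multiple of 1 step, which gave an approximate depth of 9461533 to 15030303 reads. Whole reads could not be recovered for all genes, so no model of raw counts was run.

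The 11841 genes that averaged 10 or more normalized counts entered a fit of log2(normalized count + 1) by limma 3.58.1 in R 4.3.3 (eBayes with trend), with the 3 groups in 1 fit and no covariate, two-sided and adjusted by Benjamini-Hochberg over all tested genes. A gene was called when its adjusted p was below 0.1 and its change exceeded 0.6 on the log2 scale. Fold changes on this scale understate those of rare genes. On simulated data with 200 of 11841 genes changed by a log2 fold of 2, in pair-fed against vehicle, 196 (98%) were recovered with 8 false calls. That change is larger than any fitted for the 10 genes, and the recovery of smaller changes was not simulated. Other values were computed with Python 3.11.15, numpy 2.4.6, pandas 2.3.3 and scipy 1.17.1. Positions and promoters came from RefSeq (GRCm38.p6), and exon overlaps, transcript lengths and transcript numbers from GENCODE, with 14282 symbols found.

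The 10 genes, the other lists and the tests were chosen with earlier results of these data known. Named genes were the 10 genes, listed genes past both thresholds in any comparison, the gene of each list with the smallest p in pair-fed against vehicle, and the 10 genes most like Chac1. Other listed genes were chosen after their values were seen. Of 88 listed genes 86 have a row, and 82 passed the minimum. Fgf21 and Gdf15 were not analysed here. The mice sharing a number in different groups are different animals. Over 14 such pairs the correlation of their deviations lay between -0.0994 and 0.0665, so mouse number was not used as a block. Alternatives were other pseudocounts, minima, scalings and weights, no trend, the deposited values as they stand, 2 groups alone, the mouse number as a block, depth as a covariate, and each mouse left out.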

Additional observations from a re-analysis of the deposited data

Results flagged for a closer look

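Within groups of 5 or 6 mice, the highest and the lowest value of each named gene were compared with the others by Dixon's criterion at the 95% level, for the 10 genes and those listed genes that passed the adjusted p in any comparison or had the smallest p of their list, 90 groups in all. A mouse stood apart in 3 of them, and chance alone would flag about 1 in 20. Atf5 in vehicle-treated mouse 1 was at 804.7 normalized counts, with the nearest of its group at 1020.4. Aldh1l1 in the same mouse was at 60.7, with the nearest at 87.6. Mthfd1l in pair-fed mouse 4 was at 13.0, with the nearest at 16.3. Chac1 in vehicle-treated mouse 1 was the lowest of its group, at 653.2, and did not stand apart by this criterion.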

How the results depend on the processing

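Of the 10 genes, the values of Chac1, Atf4 and Atf5 kept their sign in all 3 comparisons under all 27 alternatives, given for Chac1 as a description only, since its values chose it. Its value in pair-fed against vehicle was 0.66 with the mouse number as a replicate block, and the count of the 10 genes past the thresholds there was 0 with the block and without pair-fed mouse 5. The pairing of the numbers did not hold, with 0 of 14 correlations over 0.1. The block left 20 genes called in GDF15 against vehicle in place of 36 and 0 in place of 2 of the wider list, and log2 depth as a covariate, chosen after seeing the data, left 19 and 1. On the deposited log2 values as they stand, where differences of rare genes are compressed, 7, 9 and 17 genes were called in the 3 comparisons, against 33, 36 and 97, and 0 of the wider list in either comparison with vehicle. The wider list in GDF15 against vehicle also fell to 1 gene with a pseudocount of 5, a minimum of 50, no variance trend or only the 2 groups compared, and in pair-fed against vehicle went to 0 with the minimum of 50, which removes Mthfd1l, and to 2 with only the 2 groups compared. The cause of the other changes was not tested.

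Leaving out each mouse in turn gave 15 to 62, 18 to 38 and 60 to 158 genes called in the 3 comparisons, highest in the first and the last without pair-fed mouse 3 and lowest in both without pair-fed mouse 5. The 10 genes gave 1, 0 and 0 to 1, the wider list 0 to 1, 1 to 2 and 1 to 2, and correlated pairs 0 throughout. Signs turned where a value was under its standard error. Under the block, Ddit3 was at 0.072, Trib3 at 0.037 and Mthfd2 at -0.041 in pair-fed against vehicle. Under quantile normalization Trib3 was at 0.018, and under library weights Trib3 was at 0.048 and Mthfd2 at -0.0553. Without 1 mouse, values in pair-fed against vehicle ran from -0.14 to 0.35 for Asns, -0.097 to 0.038 for Ddit3, -0.12 to 0.20 for Mthfd2, -0.47 to 0.14 for Psat1 and -0.24 to 0.16 for Trib3. In GDF15 against vehicle they ran from -0.052 to 0.080 for Ddit3, -0.065 to 0.21 for Mthfd2 and -0.026 to 0.092 for Sesn2. In GDF15 against pair-fed, Ddit3, Phgdh and Mthfd2 also crossed 0, between -0.18 and 0.20. With the minimum of 50, Trib3, Asns, Psat1, Phgdh and Mthfd2 gave no value. The spread expected from counting was 14.6% to 25.8% of the mean in these 5 genes.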
